A study of Mus musculus with 6 samples.

Results

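The genes described here are 9 markers that liver biologists read for bile duct cells and for immature liver cells, namely Sox9, Sox4, Krt7, Krt19, Krt23, Afp, Cd24a, Tspan8 and Epcam. They were taken by name, and all 9 were found once in the GENCODE mouse annotation of GRCm38, among 55487 genes in the count tables. The libraries come from primary hepatocytes, the parenchymal cells of the liver, which were isolated from mice of a B6CBAF1 background, put in culture and left untreated. WT mice carried no transgene (3 libraries). Alb/MDA-9 mice (3 libraries) were heterozygous for a human MDA-9/SDCBP transgene, whose product is the scaffold protein syntenin with a C-terminal HA tag. An albumin enhancer and core promoter, active in hepatocytes, drove it. Both genotypes were littermates on regular chow. The sources used here give no ages, number of founder lines or time in culture, and do not say whether libraries of a group came from separate animals. The p-values below therefore rest on how far libraries of a genotype differed, which can be technical.

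Hepatocytes and the cholangiocytes that line the bile ducts arise from a common fetal precursor, the hepatoblast. Notch and TGF-beta signals favour the biliary fate, and SOX9 and SOX4 are transcription factors that act in bile duct formation. Cholangiocytes hold keratins 7 and 19 beside keratins 8 and 18, whereas adult hepatocytes have mainly the latter pair. Alpha-fetoprotein, made by hepatoblasts and silenced after birth, returns in regenerating livers and in many liver tumours. EPCAM, CD24 and the tetraspanin TSPAN8 are surface proteins of biliary and progenitor cells.

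Between 16403918 and 19046739 reads per library fell on a gene in its annotated direction. Values are CPM scaled by TMM factors, and 3 reads, the limit that a count of 0 allows, corresponded to 0.151 to 0.180 CPM. The genotypes lay apart on the first principal component (56.9% of the variance), and Alb/MDA-9 3 lay apart on the second (16.7%). The 12 hepatocyte markers were all tested, with 2 higher and 1 lower (6 higher without Alb/MDA-9 3, 1 without WT 2), and the albumin gene Alb stood at 56476 ± 2235 CPM in WT (SD, n = 3). Genes of mature cholangiocytes were mixed. The bile acid transporter gene Slc10a2 stood at 81.8 ± 1.19 CPM and the anion exchanger gene Slc4a2 at 67.8 ± 2.60 CPM in WT (SD, n = 3). By contrast, no read was assigned to Cftr, Sctr or Tff2, and all libraries together held 3 reads of Cldn7. In bulk samples like these, fewer cells of a type and less RNA per cell cannot be told apart.

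The 9 markers divided by direction. In Alb/MDA-9, Sox9, Sox4 and Krt19 were higher, Krt7, Tspan8 and Afp were lower, and Krt23, Cd24a and Epcam did not pass the test. All 9 had enough reads to be tested. The 6 calls stand beside 14.4% of all 13296 tested genes (edgeR, quasi-likelihood F test, adjusted p under 0.05 by Benjamini and Hochberg), of which 7.35% were higher and 7.09% lower. The same 6 markers had libraries that did not overlap between genotypes, against 33.6% of tested genes. The markers were chosen with earlier results of these data known, so these shares describe them and test nothing. Of the 6, the 3 lower markers and 0 of the higher ones changed at least 2-fold, as did 2.64% and 0.985% of all tested genes. The median log2 change was -0.07 over the 9 markers and -0.0015 over all tested genes. With 1 library left out the lower markers numbered 3 each time. The higher markers numbered 1 without WT 1, leaving Sox9, and 2 without WT 2 or Alb/MDA-9 2.

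**Figure D1:**
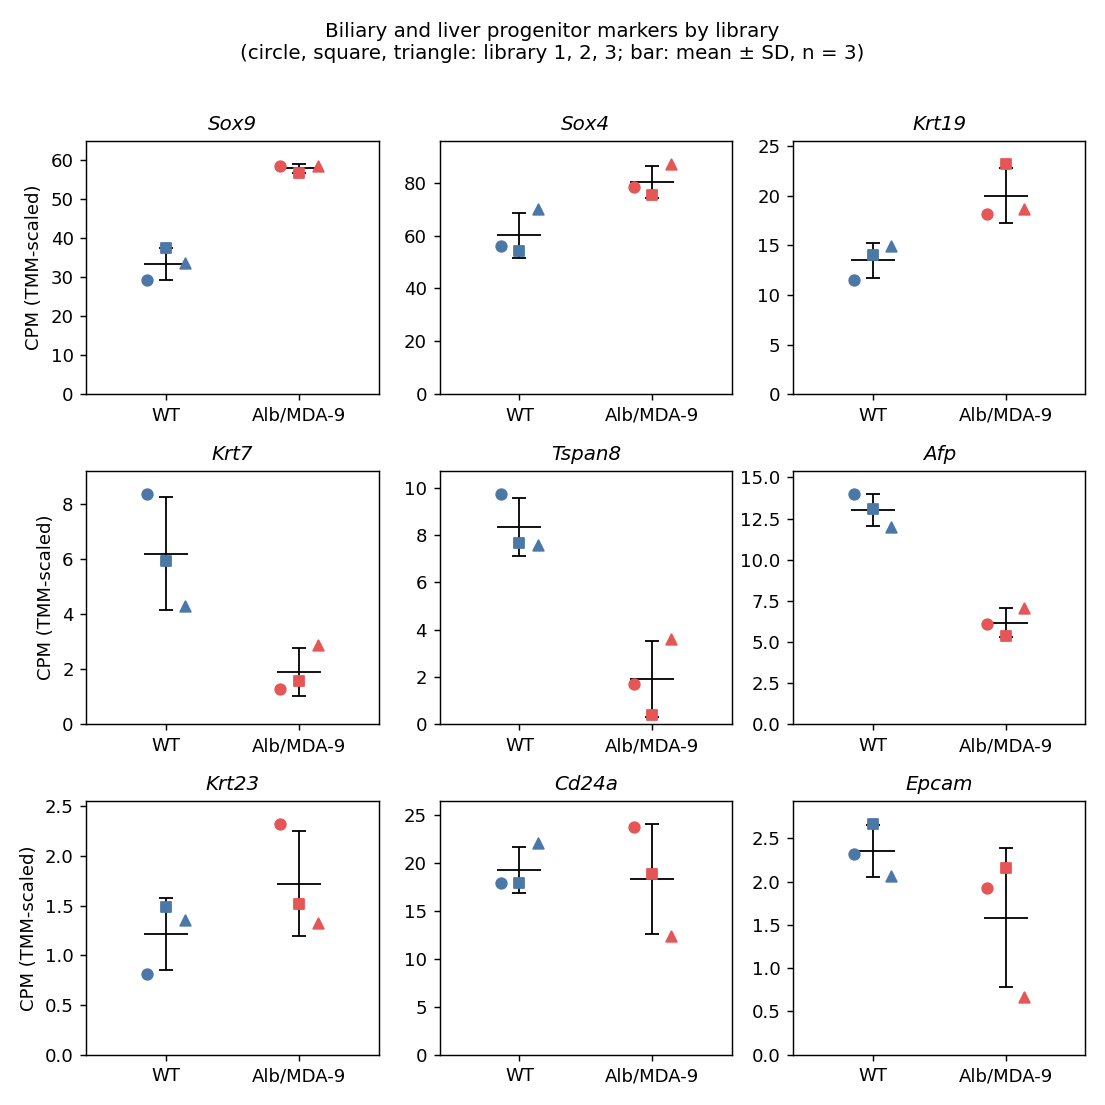
TMM-scaled CPM (y axis, from 0) of the 9 markers in each WT (blue) and Alb/MDA-9 (red) library; circle, square and triangle are libraries 1, 2 and 3, and the bar is the mean ± SD of 3. Sox9, Sox4 and Krt19 sit higher and Krt7, Tspan8 and Afp lower in every Alb/MDA-9 library than in any WT library, whereas the groups overlap for Krt23, Cd24a and Epcam.

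Sox9 (ENSMUSG00000000567, chromosome 11, 112782224 to 112787760, plus strand, GRCm38) encodes a transcription factor of bile duct cells and of periportal hepatocytes with biliary potential. WT 1 to 3 had 29.2, 37.4 and 33.5 CPM, whereas Alb/MDA-9 1 to 3 had 58.6, 56.5 and 58.5 CPM. The Alb/MDA-9 libraries lay close together, with a coefficient of variation of 1.99% against 12.4% in WT. With 3 libraries per genotype such spreads are poorly known, and their difference was not tested. The change was 1.73-fold, or log2 0.79 (SE 0.09, edgeR adjusted p = 0.000132), and it ranged from 0.70 to 0.89 with 1 library left out. It did not pass the test against a fold of 1.5 (edgeR adjusted p = 0.175).

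Sox4 (ENSMUSG00000076431, chromosome 13, 28948919 to 28953713, minus strand) encodes a related SOX factor that acts together with SOX9 in the developing bile duct. WT 1 to 3 had 56.2, 54.1 and 69.9 CPM, and Alb/MDA-9 1 to 3 had 78.4, 75.2 and 87.1 CPM. WT 3 was the highest WT library, and every Alb/MDA-9 library was above it. The change was 1.34-fold, log2 0.42 (SE 0.10, edgeR adjusted p = 0.0150). The call ended without WT 1 (edgeR adjusted p = 0.0646), without WT 2 (0.0850) and with library totals in place of TMM factors (0.0566). A long noncoding RNA gene on the opposite strand, Gm26735, shares 2616 exon bases with Sox4 but was not among the genes counted, so it has no value here. Opposite-strand reads over Sox4 numbered 28 in WT and 24 in Alb/MDA-9, beside 3354 and 4161 reads on its own strand.

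Krt19 (ENSMUSG00000020911, chromosome 11, 100140810 to 100148665, minus strand) encodes the acidic keratin that is the classic marker of bile duct epithelium. Its level was 11.5, 13.98 and 15.0 CPM in WT 1 to 3, whereas Alb/MDA-9 1 to 3 reached 18.2, 23.2 and 18.6 CPM. All Alb/MDA-9 libraries were above all WT libraries, with Alb/MDA-9 2 the highest. The change was 1.48-fold, log2 0.57 (SE 0.14, edgeR adjusted p = 0.0147). The call ended without WT 1 (edgeR adjusted p = 0.0654) or Alb/MDA-9 2 (0.0779).

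Krt7 (ENSMUSG00000023039, chromosome 15, 101411043 to 101430313, plus strand), which encodes the basic keratin found beside keratin 19 in bile ducts, went the other way. WT 1 to 3 held 166, 116 and 73 reads (8.37, 5.94 and 4.31 CPM), and Alb/MDA-9 1 to 3 held 23, 27 and 48 reads (1.27, 1.57 and 2.89 CPM). The genotypes did not overlap, and WT 3 and Alb/MDA-9 3 were the nearest to each other. Krt7 was 3.28-fold lower, log2 -1.71 (SE 0.32, edgeR adjusted p = 0.00388), from -2.13 to -1.43 with 1 library left out, and it passed the test against a fold of 1.5 (edgeR adjusted p = 0.0426). The Krt7 and Krt19 changes had 95% intervals of -2.41 to -1.01 and 0.28 to 0.86 on the log2 scale, on either side of 0. Krt23 (ENSMUSG00000006777, chromosome 11, 99477974 to 99493137, minus strand), an acidic keratin read in biliary and injured liver epithelium, had only 16 to 29 reads per WT library and 22 to 42 per Alb/MDA-9 library. Its log2 change was 0.50 (SE 0.36, edgeR adjusted p = 0.393), with a 95% interval of -0.28 to 1.28.

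The keratins common to hepatocytes and bile duct cells were read at far higher levels. Per kilobase of merged exons, WT had 5444 ± 228 CPM of Krt18 and 2020.5 ± 92.1 CPM of Krt8 (SD, n = 3), against 7.27 ± 0.945 of Krt19, 0.881 ± 0.290 of Krt7 and 0.778 ± 0.231 of Krt23. The merged exons of Krt7 span 7049 bases, against 1855 for Krt19 and 1565 for Krt23, so its value can be understated. Neither Krt8 nor Krt18 passed the test (log2 -0.03 and -0.06, SE 0.09 and 0.11), and neither did Krt80. Of the 4 other simple epithelial keratins 1 was lower, the gut and urothelial keratin gene Krt20. Its WT libraries had 113, 114 and 100.5 CPM and Alb/MDA-9 1 to 3 had 50.5, 66.0 and 101 CPM, so that Alb/MDA-9 3 lay within the WT range (log2 -0.59, edgeR adjusted p = 0.0475). Leaving out any library other than Alb/MDA-9 3 ended the Krt20 call (edgeR adjusted p = 0.0700 to 0.182), as did DESeq2 (adjusted p = 0.206).

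Keratins 7 and 19 also mark mesothelium, the covering layer of the liver. Msln, the mesothelial surface protein gene, stood at 7.01, 5.84 and 4.55 CPM in WT 1 to 3, but at 0.166, 0.291 and 1.38 CPM in Alb/MDA-9 1 to 3 (log2 -3.26, edgeR adjusted p = 0.000669). Like Krt7 it was highest in WT 1, lowest among WT in WT 3, and highest among Alb/MDA-9 in Alb/MDA-9 3. That pattern was not particular to these genes, since Tspan8, Afp and the proliferation marker Top2a had it too, whereas Mki67 did not. Of the 9 mesothelial markers, Krt7 and Krt19 among them, 3 were tested, 1 higher (Krt19) and 2 lower. The summed level of the list was 23.9 to 27.1 CPM in WT and 19.6 to 25.1 CPM in Alb/MDA-9. Krt19, which rose while Msln and Krt7 fell, gave 11.5 to 15.0 CPM of it in WT and 18.2 to 23.2 CPM in Alb/MDA-9. The defining markers Upk3b, Upk1b, Lrrn4 and Gpm6a had 0 reads in every library. Over all 6, Wt1 had 12 reads (10 in WT, 2 in Alb/MDA-9) and Muc16 1 read. The part of mesothelial cells in the fall of Krt7 was not tested.

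**Figure D2:**
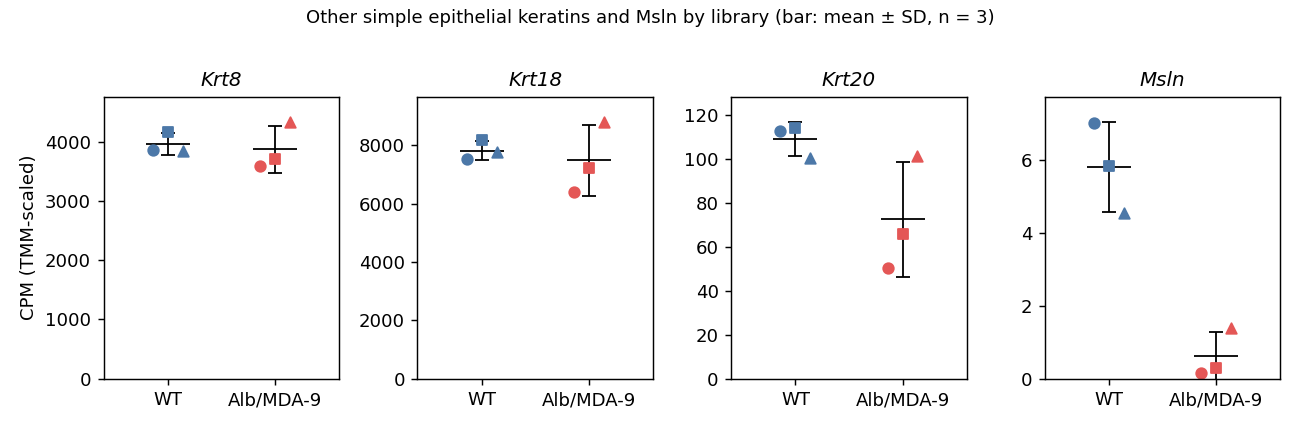
TMM-scaled CPM (y axis, from 0) of Krt8, Krt18, Krt20 and Msln in each WT (blue) and Alb/MDA-9 (red) library, with libraries 1, 2 and 3 as circle, square and triangle and the mean ± SD of 3 as a bar. Krt8 and Krt18 overlap between genotypes, Krt20 of Alb/MDA-9 3 (101 CPM) lies among the WT libraries, and Msln is below every WT library in all 3 Alb/MDA-9 libraries.

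Tspan8 (ENSMUSG00000034127, chromosome 10, 115816832 to 115849893, plus strand) encodes a tetraspanin of epithelial cell membranes and of extracellular vesicles. It had the largest change of the 9 markers. WT 1 to 3 held 193, 150 and 128 reads (9.73, 7.68 and 7.57 CPM), and Alb/MDA-9 1 to 3 held 31, 7 and 60 reads (1.71, 0.407 and 3.61 CPM). Every Alb/MDA-9 library was below every WT library, but they differed widely among themselves, with a coefficient of variation of 84.3%. Tspan8 was 4.38-fold lower, log2 -2.13 (SE 0.42, edgeR adjusted p = 0.00517). Without Alb/MDA-9 3 the log2 change was -2.95 and without Alb/MDA-9 2 it was -1.66, both past the threshold.

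The other surface markers did not pass the test. Cd24a (ENSMUSG00000047139, chromosome 10, 43578284 to 43584265, plus strand), which encodes a small glycosylated adhesion protein of progenitor, biliary and blood cells, stood at 17.9, 17.9 and 22.05 CPM in WT 1 to 3, beside 23.7, 18.8 and 12.3 CPM in Alb/MDA-9 1 to 3. The Alb/MDA-9 libraries reached both above and below the WT range (log2 -0.07, SE 0.19, 95% interval -0.48 to 0.34, edgeR adjusted p = 0.846). The sign turned to 0.14 without Alb/MDA-9 3 and to 0.03 without WT 3. A processed pseudogene, Gm6212, matches Cd24a at 96.8% over 218 bases and held 0 reads. Epcam (ENSMUSG00000045394, chromosome 17, 87635979 to 87651129, plus strand), an epithelial adhesion protein gene, stood at 2.32, 2.66 and 2.07 CPM in WT 1 to 3, beside 1.93, 2.15 and 0.662 CPM in Alb/MDA-9 1 to 3. Alb/MDA-9 3 held 11 reads, Alb/MDA-9 1 and 2 held 35 and 37, and the groups overlapped (log2 -0.57, SE 0.37, 95% interval -1.38 to 0.25, edgeR adjusted p = 0.354).

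**Figure D3:**
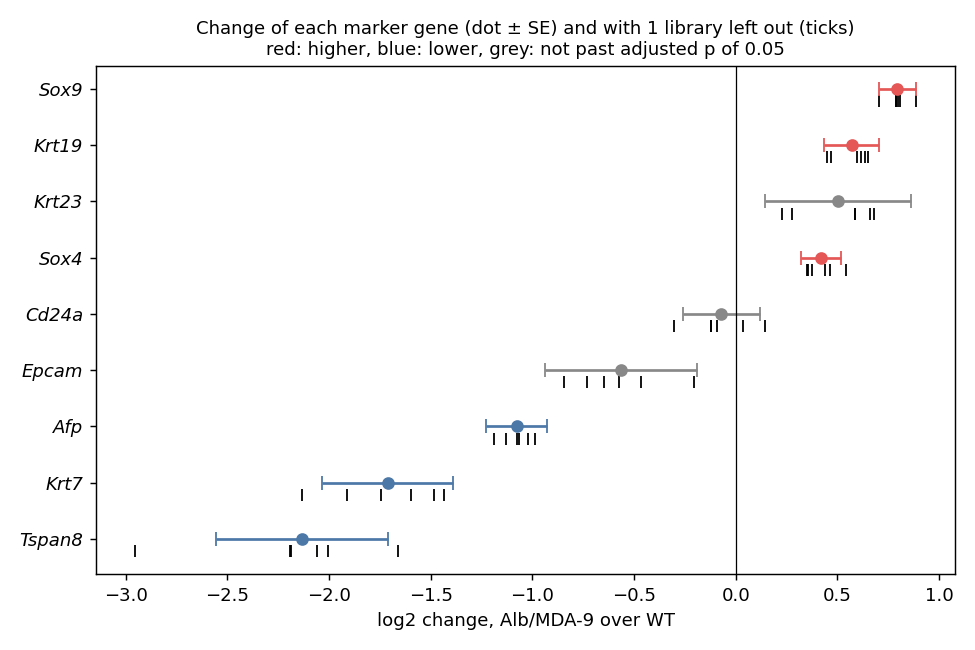
Log2 change of each marker gene, Alb/MDA-9 over WT (x axis), as a dot with its SE, red where higher, blue where lower and grey where the edgeR test was not passed; black ticks are the values with 1 library left out. The ticks of Cd24a fall on both sides of 0, those of Tspan8 run from -2.95 to -1.66, and those of Sox9 stay between 0.70 and 0.89.

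Afp (ENSMUSG00000054932, chromosome 5, 90490737 to 90508907, plus strand) encodes alpha-fetoprotein, the fetal serum protein related to albumin. WT 1 to 3 had 13.97, 13.1 and 12.0 CPM, whereas Alb/MDA-9 1 to 3 had 6.07, 5.35 and 7.10 CPM. The genotypes were well apart, and the spread within each was small (coefficients of variation 7.58% and 14.2%). Afp was 2.11-fold lower, log2 -1.08 (SE 0.15, edgeR adjusted p = 0.000507), from -1.19 to -0.99 with 1 library left out, and it passed the test against a fold of 1.5 (edgeR adjusted p = 0.0378). Of the 3 other genes of the albumin gene cluster, Gc, which encodes the vitamin D binding protein, was higher (log2 0.33, edgeR adjusted p = 0.0111). Gc starts more than 1 Mb from Afp. Alb and Afm did not pass the test (log2 0.16 and -0.18, edgeR adjusted p = 0.355 and 0.218), but Alb passed as higher without Alb/MDA-9 3 (0.0214) and Afm as lower with library totals (0.0369). The Gc call ended with library totals, and when WT 2, WT 3 or Alb/MDA-9 2 was left out.

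Reads on the strand opposite to Afp differed as well. WT 1 to 3 had 49, 47 and 35 such reads, whereas Alb/MDA-9 1 to 3 had 3, 10 and 0. As a share of Afp reads of both strands this was 15.0% (exact Clopper-Pearson 95% interval 11.3 to 19.4), 15.6% (11.7 to 20.2) and 14.7% (10.5 to 19.9) in WT. In Alb/MDA-9 it was 2.65% (0.551 to 7.56), 9.80% (4.80 to 17.3) and 0% (up to 3.08). Each interval holds the counting error of its own library and leaves out the spread between libraries. Those of Alb/MDA-9 2 and Alb/MDA-9 3 did not overlap. No molecular identifiers were read, so duplicate reads can make the intervals too narrow. In WT the pooled share, 15.1%, was above that of 95.9% of 12117 tested protein-coding genes, whose median was 0.0740%. A fit of the opposite-strand column over its 2775 tested genes, chosen after these reads had been seen, gave a log2 change of -3.21 for Afp (SE 0.57, edgeR adjusted p = 0.00331; -4.67 without Alb/MDA-9 2, -2.64 without Alb/MDA-9 3), where 0.937% of genes were lower. The annotated antisense gene inside Afp, Gm43449, shares 0 exon bases with it and had 9 reads in WT and 1 in Alb/MDA-9. The Afp values on its own strand leave these reads out.

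**Figure D4:**
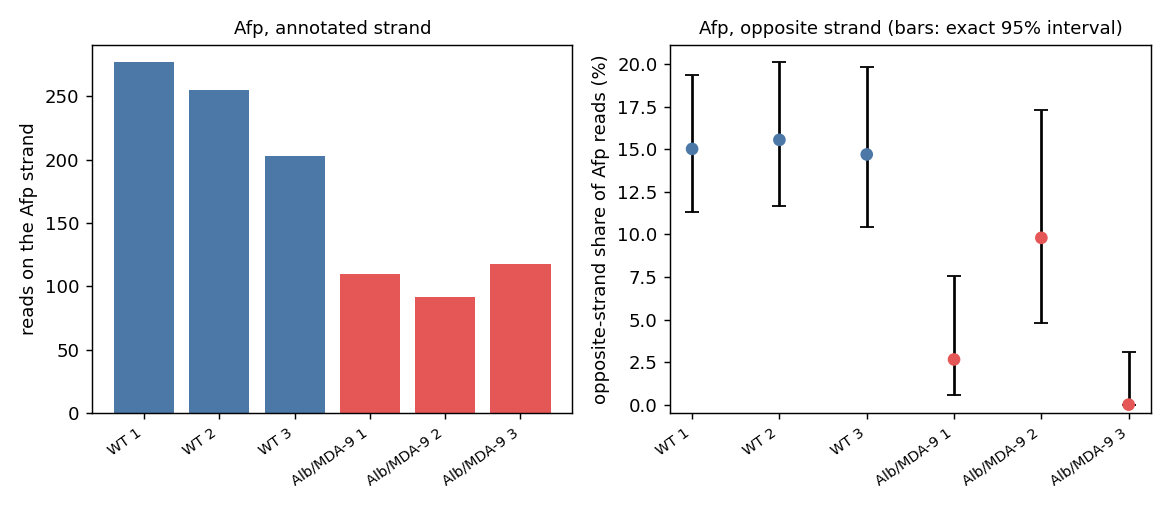
Left, reads on the annotated strand of Afp in each library (bars from 0; WT blue, Alb/MDA-9 red). Right, the share of Afp reads on the opposite strand in percent, with exact 95% binomial intervals; the WT libraries lie at 14.7% to 15.6% and the Alb/MDA-9 libraries at 0% to 9.80%.

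The promoters of markers that changed are shown for their difference in sequence, as 250 bases before the RefSeq start (GRCm38.p6, strand of the gene). The RefSeq table matched 6 of the 9 markers; Sox9, Krt19 and Cd24a were not matched. Capitals mark matches, searched on both strands, to the site of the Notch effector RBPJ (TGGGAA), to that of the YAP partner TEAD (CATTCC, found on the opposite strand in Sox4) and to the TATA box (TATAAA). These stand at chr5:90490464-90490713 (plus) for Afp, chr13:28953700-28953949 (minus) for Sox4, chr15:101412153-101412402 (plus) for Krt7 and chr10:115817034-115817283 (plus) for Tspan8.
Afp: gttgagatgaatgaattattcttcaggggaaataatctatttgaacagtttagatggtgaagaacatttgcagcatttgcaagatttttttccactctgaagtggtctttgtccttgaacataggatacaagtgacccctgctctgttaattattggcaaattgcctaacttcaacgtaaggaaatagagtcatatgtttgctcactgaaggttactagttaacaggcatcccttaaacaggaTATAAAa
Sox4: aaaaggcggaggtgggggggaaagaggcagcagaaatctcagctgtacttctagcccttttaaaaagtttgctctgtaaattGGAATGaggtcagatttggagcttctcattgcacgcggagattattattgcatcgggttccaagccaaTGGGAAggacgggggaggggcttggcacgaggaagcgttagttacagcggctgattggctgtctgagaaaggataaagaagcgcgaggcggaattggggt
Krt7: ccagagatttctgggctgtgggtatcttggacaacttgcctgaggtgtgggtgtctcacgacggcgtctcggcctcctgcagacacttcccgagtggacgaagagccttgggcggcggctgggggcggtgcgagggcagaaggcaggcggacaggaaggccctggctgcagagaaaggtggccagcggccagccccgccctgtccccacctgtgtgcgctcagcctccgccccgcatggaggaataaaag
Tspan8: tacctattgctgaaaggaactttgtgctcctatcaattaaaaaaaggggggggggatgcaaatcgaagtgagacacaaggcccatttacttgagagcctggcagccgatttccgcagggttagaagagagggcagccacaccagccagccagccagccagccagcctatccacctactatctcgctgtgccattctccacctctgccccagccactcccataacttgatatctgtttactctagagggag

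Afp, which fell, held a TATA box whose first base lies 7 bases before the RefSeq start and 30 before the GENCODE gene start. Sox4, which rose, held 1 RBPJ and 1 TEAD match, and Krt7 and Tspan8, which fell, held none of the 3 motifs. By their GENCODE gene starts, 101411043 and 115816832, the windows of Krt7 and Tspan8 lie inside the genes. Bases before those starts were not searched. Krt23 and Epcam, which did not pass the test, held none either. Among 32851 promoters of the same length, 21.6% held the RBPJ site, 12.6% the TEAD site and 12.4% the TATA box. None of the 3 motifs is contained in another, and a match is a description of letters only.

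Levels of the 9 markers can be ordered per kilobase of merged exons, which understates genes whose long annotated transcripts are little used. Krt7 had the longest merged exons of the 9 (7049 bases), so its place can be too low. In WT, Sox4 came first (12.5 ± 1.79 CPM per kilobase; SD, n = 3), then Sox9 (8.07 ± 1.002), Cd24a (7.47 ± 0.931) and Krt19 (7.27 ± 0.945), which did not differ beyond their spread. Tspan8 (4.89 ± 0.717) and Afp (3.86 ± 0.293) followed, and Epcam, Krt7 and Krt23 came last without differing beyond their spread. In Alb/MDA-9 the order was Sox4 (16.7 ± 1.29), Sox9 (13.996 ± 0.279), Krt19 (10.8 ± 1.502) and Cd24a (7.09 ± 2.22), the last pair within their spread. Afp stood at 1.83 ± 0.260 and Tspan8 at 1.12 ± 0.946, within the spread of each other. Krt23 (1.098 ± 0.338), Epcam (0.721 ± 0.367) and Krt7 (0.271 ± 0.122) followed, each within the spread of the gene before it. Among 13287 tested genes with a known length, Sox9 was above 64.1% in WT and 76.8% in Alb/MDA-9, and Tspan8 above 51.4% and 24.2%.

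Other cholangiocyte genes were read only in part. Of 18 listed, 11 were tested, 4 were higher and 0 lower, with a median log2 change of 0.23. Spp1, the osteopontin gene, went from 0.966 ± 0.343 to 215 ± 56.6 CPM, and Cldn4, a tight junction claudin of bile ducts, from 196 ± 13.5 to 454 ± 21.7 CPM (SD, n = 3; log2 1.21, edgeR adjusted p = 7.13e-07). The adhesion gene Cdh1 changed by log2 0.33 and Slc4a2 by 0.27, and neither passed with library totals. The count of higher genes was 2 without Alb/MDA-9 2 and 2 with library totals, and 1 gene was lower with library totals, DESeq2, no low-count filter or a replicate block, or without Alb/MDA-9 1. Slc10a2 had every Alb/MDA-9 library below WT, at 60.5 ± 17.0 CPM (log2 -0.43, edgeR adjusted p = 0.0813), and passed the test as lower in those 5 settings.

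Of the 15 Notch pathway genes 10 were tested, 2 higher and 2 lower, with a median log2 change of -0.10. The ligand gene Jag1 rose from 15.3 ± 2.12 to 22.1 ± 2.35 CPM, and the target gene Hes1 from 9.81 ± 0.433 to 13.4 ± 1.05 CPM (SD, n = 3; edgeR adjusted p = 0.0145 and 0.0322). The receptor gene Notch1 (log2 -0.25) and the modifier gene Lfng (log2 -1.73) were lower. None of these 4 calls held without WT 1 or without WT 2, where 0 Notch genes passed, and 1 gene was higher and 0 lower without WT 3, Alb/MDA-9 1 or Alb/MDA-9 2. DESeq2 called 2 Notch genes higher and 0 lower, and a replicate block 1 higher and 0 lower. Of 12 TGF-beta pathway genes, all tested, 4 were higher and 0 lower, with a median of -0.02. They were the receptor gene Tgfbr1 (log2 0.89), the pathway inhibitor genes Skil (0.69) and Ski (0.40), and Smad7 (0.58). The Smad7 call ended without WT 1, WT 2, Alb/MDA-9 1 or Alb/MDA-9 2 (edgeR adjusted p = 0.106 to 0.161), and 1 gene of the pathway was lower without Alb/MDA-9 3, with library totals, with upper-quartile factors and with DESeq2, and 2 were with no low-count filter.

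Other fetal liver genes went in both directions. Of 12 listed, 5 were tested, with 2 higher and 1 lower. H19 and Igf2 had 0 reads, and Dlk1 and Gpc3 had 2 and 8 over all libraries. The imprinted gene Peg10 had 10.5 ± 1.57 and 19.2 ± 4.69 CPM and the hyaluronan receptor gene Cd44 79.98 ± 1.69 and 118 ± 11.9, both higher, whereas the RNA-binding protein gene Igf2bp2 fell from 12.0 ± 0.0805 to 7.65 ± 0.596 CPM (SD, n = 3; edgeR adjusted p = 0.00597). Of 10 transcription factor genes known to act on Afp, 4 were higher and 0 lower, with a median of 0.25. Among them were Nfia (log2 0.54), Nr5a2 (0.39) and Zfhx3 (0.36), a known repressor of Afp. The Nr5a2 call (edgeR adjusted p = 0.0372) ended with any library other than Alb/MDA-9 3 left out (0.0542 to 0.138), and the Nfia and Zfhx3 calls held in each such fit. The postnatal Afp repressor genes Zbtb20 and Zhx2 had log2 changes of 0.00 and 0.26 and did not pass the test.

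Markers of other liver cells, and markers of proliferation in any cell, moved with the genotype too. Of 10 Kupffer cell markers 8 were lower and 0 higher (median log2 -0.67), with a summed level of 142 to 148 CPM in WT and 72.8 to 101 CPM in Alb/MDA-9. Of 8 endothelial markers 4 were lower (200.4 to 219 against 145 to 157 CPM), and of 9 stellate and fibroblast markers 4 were lower (267 to 287 against 181 to 251 CPM). All 7 tested proliferation markers were lower (64.7 to 73.5 against 10.4 to 20.3 CPM). The stellate count was 1 without WT 1 or WT 3 and 2 without WT 2 or Alb/MDA-9 2, and the Kupffer count 5 without WT 2. In none of these 4 lists was a gene higher. Their part in the lower Krt7, Tspan8 and Afp was not tested.

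**Figure D5:**
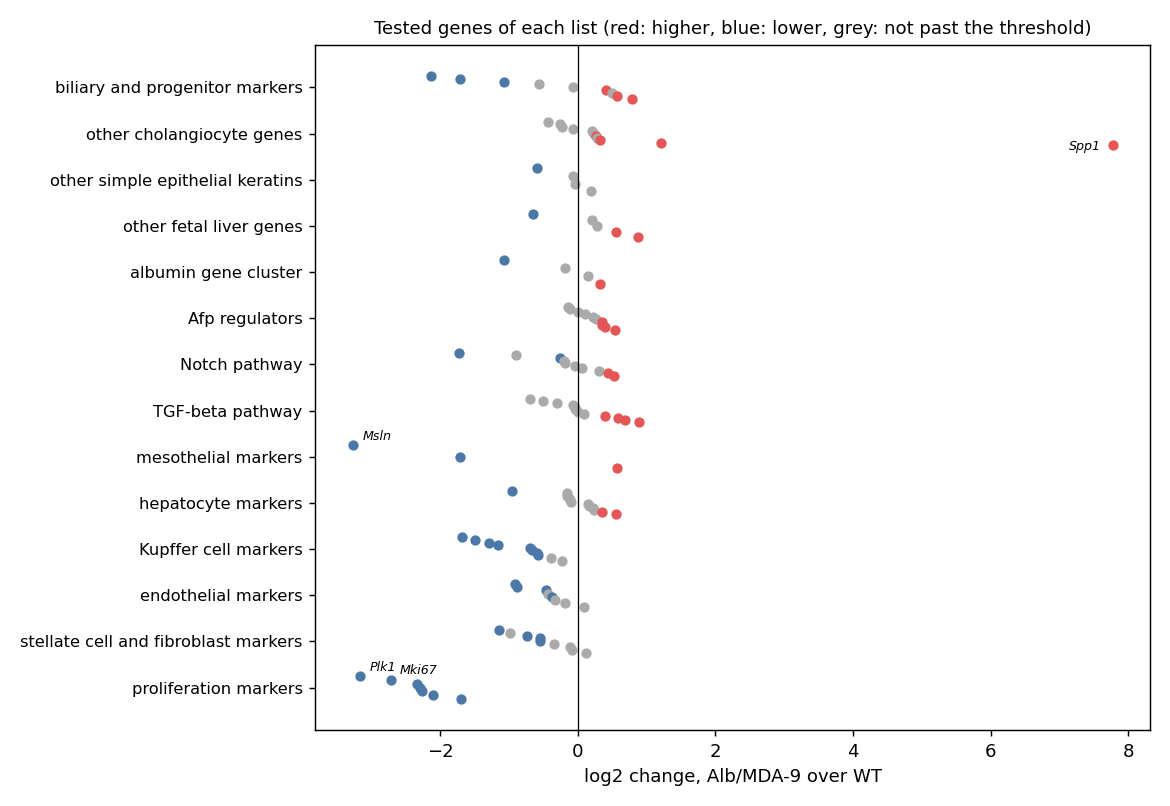
Log2 change, Alb/MDA-9 over WT (x axis), of every tested gene in each list (rows); red genes were higher, blue lower and grey did not pass the edgeR test. The markers and the other cholangiocyte genes spread to both sides of 0, Spp1 lies farthest right, and the Kupffer and proliferation lists hold no red gene.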

How the data were processed

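RNA was sequenced in 3 WT and 3 Alb/MDA-9 libraries. The deposited tables hold raw read counts per gene in the layout of STAR, which counts reads of either strand and of each strand. Per the submitters' processing notes, the tools were STAR 2.7.9a, edgeR 3.18.1, Trim Galore 0.6.6 and FastQC 0.11.2, with builds GRCm38 and mm10; the sources used here give no options or annotation release. The reverse-strand column was used, since it held at least 96.9% of stranded reads. The summary rows stayed out of library sizes; unmapped reads were 9.22% to 10.4% and multimapped reads 18.7% to 20.2%, and reads shared by near-identical copies are lost. Genes were filtered with filterByExpr (minimum count 10), scaled by TMM and tested with edgeR 4.0.16 (R 4.3.3, quasi-likelihood, no covariate, 4 residual degrees of freedom), Benjamini-Hochberg over 13296 genes, and the test was tried on simulated data. SE is the log2 change over the root of F. The 95% intervals of log2 changes used t values with the total degrees of freedom of that test. These add a prior part shared over genes to the 4 residual ones, which makes the intervals narrower. Names came from GENCODE M21, which held 55227 of 55487 identifiers; near-identical copies had at least 95% identity over 100 bases (BLAST). Members and lists were chosen with earlier results of these data known. Named were all members, up to 3 called genes of each list by size of change, markers at 0, and for each member the gene most like it. Other genes named were chosen after their values were seen. Alternatives were DESeq2 1.42.0, library totals, upper-quartile factors, other filters, the either-strand column, a replicate block, a test against a fold of 1.5 and leaving out each library. Values of some listed genes are not reported here.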

Additional observations from a re-analysis of the deposited data

How the results depend on the processing

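Direction held for 8 of the 9 markers under every alternative run; Cd24a was the exception, with log2 changes from -0.30 to 0.14 with 1 library left out, positive without WT 3 (0.03) and without Alb/MDA-9 3 (0.14). Called genes numbered 1920 (977 higher, 943 lower), 240 in the test against a fold of 1.5 and 1017 to 2386 with 1 library left out (1168 without WT 1, 1017 without WT 2, 1131 without Alb/MDA-9 2). With library totals 525 genes were higher and 1620 lower, and the median log2 change of all genes moved to -0.11; with upper-quartile factors the counts were 722 and 1087. Markers called higher numbered 3, against 0 in the test against a fold of 1.5 and 1 to 3 with 1 library left out; those called lower numbered 3 in each such fit. The stricter filter, a mean of 5 CPM, tested 6 markers and called 2 lower, because Krt7, Krt23 and Epcam were not tested. Replicate numbers share only a label, since same-numbered libraries did not deviate together (correlations -0.05, -0.0037 and -0.07), and a replicate block gave 1601 called genes and again 3 higher and 3 lower markers. Depth limits Krt23 (158 reads in all), Epcam (216 reads) and the Tspan8 value of Alb/MDA-9 2 (7 reads).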

Other observations

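For each marker the most similar profile was sought among 9575 or 9576 other protein-coding genes of at least 5 CPM. Likeness was the root mean square difference of centred log2 CPM over the 6 libraries, with 0.5 added to each CPM. That offset flattens the profiles of markers with low CPM, such as Krt23 and Epcam, and low values of Tspan8. The difference was 0.044 between Krt19 and Malt1, 0.055 between Sox4 and Dctn3, 0.075 between Afp and Angpt2 and 0.085 between Sox9 and Aff1. It was 0.077 between Cd24a and Zbtb18, 0.085 between Epcam and Rdh16f2 and 0.099 between Krt23 and Rest. Krt7 and Tspan8 had no close match: their nearest genes, Ect2 and Top2a, which act in cell division, differed by 0.20 and 0.40. Top2a fell from 15.7 ± 0.799 to 3.14 ± 1.91 CPM, and Ect2 from 14.5 ± 3.25 to 6.43 ± 2.31 CPM (SD, n = 3; edgeR adjusted p = 0.000168 and 0.00447).

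Of all tested genes 14.4% passed the test, 7.35% higher and 7.09% lower, and whether neighbours of the markers depart from this was not tested. Within 1 Mb of Afp 16 other genes were tested, 1 higher and 2 lower (Ereg, Cxcl1 and Cox18 passed the test). Around Sox9 1 of 7 was higher (Sdk2), around Sox4 1 of 2 (Cdkal1), and around Tspan8 2 of 9 were lower (Tbc1d15 and Tmem19). Around Krt7 1 of 35 was higher and 3 were lower (Scn8a, Aaas, Espl1 and Krt5 passed the test). Krt19 and Krt23 lie in the same keratin cluster of chromosome 11, where 7 of 30 neighbours of Krt19 were higher and 2 lower, and 6 of 25 neighbours of Krt23 were higher and 5 lower.

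Of 8 leukocyte markers 1 was tested, Ptprc, and it did not pass (WT 1.71 ± 0.473 CPM, Alb/MDA-9 0.852 ± 0.436 CPM; SD, n = 3; edgeR adjusted p = 0.137). The haemoglobin genes were near 0: WT 1 to 3 held 4, 1 and 3 reads of Hbb-bs, whereas Alb/MDA-9 1 to 3 held 7, 5 and 9, each above WT, and the other 3 had 1 to 13 reads over all libraries. Of 6 red blood cell markers 1 was tested, Alas2, at 36.5 ± 3.58 CPM in WT (SD, n = 3), and it was lower (log2 -0.34, edgeR adjusted p = 0.0304; 0.119 without WT 1, 0.120 without WT 3, 0.0801 without Alb/MDA-9 2, 0.0503 with a replicate block).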
